A study of Mus musculus with 7 samples.

Results

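The cell death genes described here are 44 mouse genes of apoptosis, necroptosis and pyroptosis, chosen by name and grouped by role. Of these, 31 promote cell death, 9 restrain it, and 4 have both or other roles. They were read from a table of 55423 features, of which 24433 genes reached 5 reads in any tumour and were tested. 43 of the 44 genes passed that filter, and Hrk did not. RNA was sequenced from bulk skin tumours of mice taken to clinical endpoint, so cells of the tumour and of the tissue around it were measured together. Ivl:BRAFV600E mice carry a BRAFV600E allele that is switched on by a tamoxifen-inducible Cre under the involucrin promoter, which is active in committed epidermal progenitors. Ivl:BRAFV600E-SOX2LSL mice carry the same alleles and a Rosa26 allele from which SOX2 and eGFP are expressed after recombination. Tamoxifen was applied to the skin of mice of either sex at 7 to 10 weeks of age.

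3 Ivl:BRAFV600E tumours (RBAV23.4g and RBAV25.3j from females, RBAV27.2c from a male) were compared with 3 Ivl:BRAFV600E-SOX2LSL tumours (RBBD12.1j and RBBD5.2a from males, RBBD9.2f from a female), each from a separate mouse. They are called BRAF and SOX2 tumours here, and values per tumour are given in this order. Both BRAF females also carried a red fluorescent reporter, and every SOX2 tumour was collected sooner after induction than every BRAF tumour, so genotype and time since induction cannot be told apart. Libraries held 23565432 to 31152826 counted reads. Sox2 was at 0.716, 0.508 and 0.238 CPM (counts scaled to library size) in the BRAF tumours and at 182, 155 and 158 CPM in the SOX2 tumours, and eGFP reads were found in the SOX2 tumours only.

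Apoptosis runs along 2 routes that meet at the caspases, the proteases that dismantle the cell. In the mitochondrial route, BH3-only proteins release BAX and BAK from BCL2-like survival proteins, cytochrome c leaves the mitochondrion, and APAF1 assembles the apoptosome that activates caspase-9. In the receptor route, death receptors recruit FADD and caspase-8, which CFLAR holds back. RIPK1, RIPK3 and MLKL carry out necroptosis when caspase-8 is blocked, and gasdermins open pores in the membrane in pyroptosis. In the epidermis, death of keratinocytes is tied to barrier upkeep, to inflammation and to the removal of damaged cells.

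No cell death gene passed the test at an adjusted p of 0.05 by edgeR, while 3.90% of all tested genes did (2.39% higher and 1.51% lower in the SOX2 tumours). At an unadjusted p below 0.05 edgeR counted 18 of the 43 genes (41.9%), against 25.7% of all tested genes. Of these 18, 16 had higher values in the SOX2 tumours (all tested genes, 14.5%) and 2 had lower values (11.2%). Under a stricter filter on low counts (edgeR's filterByExpr), 5452 of 17587 genes reached that p, so the share over all genes depends on the filter. DESeq2 called 13 of the 43 (11 higher and 2 lower) against 15.0% of all genes (8.59% higher and 6.36% lower), and limma voom called 4 (3 higher and 1 lower) against 8.77% (4.80% and 3.97%). Values of 22 of the 43 genes (51.2%) did not overlap between the groups, against 34.2% of all genes. 19 of the 22 lay higher in the SOX2 tumours (18.2% of all genes) and 3 lay lower (16.0%). The median log2 fold change over the 43 genes was 0.55, against 0.04 over all tested genes. It was positive for 35 of the 43, and for 12904 of all 24433 tested genes. In bulk tissue, more cells of a type and more RNA per cell cannot be told apart.

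SOX2 tumour RBBD12.1j stood apart from the others. It held the highest value of the 6 tumours for 27 of the 43 cell death genes (62.8%), against 28.6% of all tested genes. Without it, the median log2 fold change over the cell death genes was 0.24, and edgeR called 3 of 42 tested (Bak1 and Apaf1 higher, Gsdma lower) against 6.69% of all genes (3.59% higher and 3.10% lower). With the sex of the mouse as a covariate edgeR called none of them, against 0.933% of all genes.

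Sums of keratinocyte and skeletal muscle markers did not overlap between the groups, and the part of cell types in the results below was not tested. The 13 keratinocyte markers summed to between 116000 and 186000 CPM in the BRAF tumours and to between 23600 and 79600 CPM in the SOX2 tumours, with RBBD12.1j lowest. 3 of these 13 had a higher mean in the SOX2 tumours. The 20 leukocyte markers summed to between 404 and 1370 CPM in the BRAF tumours and to between 928 and 2230 CPM in the SOX2 tumours, and 18 had a higher mean in the latter. Skeletal muscle markers ranged from 11.1 to 27.5 CPM in the BRAF tumours and from 924 to 3970 CPM in the SOX2 tumours, and 17 of the 19 tested passed the test. Sums of the 7 fibroblast markers ranged from 728 to 5040 CPM and from 3910 to 8190 CPM. The leukocyte and fibroblast sums thus overlapped between the groups. Endothelial sums (173 to 195 and 163 to 203 CPM), melanocyte sums (1.16 to 4.32 and 3.02 to 5.49 CPM) and adipocyte sums (16.7 to 43.6 and 10.9 to 58.0 CPM) overlapped between the groups. No marker of the 7 lists was at 0 in all 6 tumours.

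**Figure D1:**
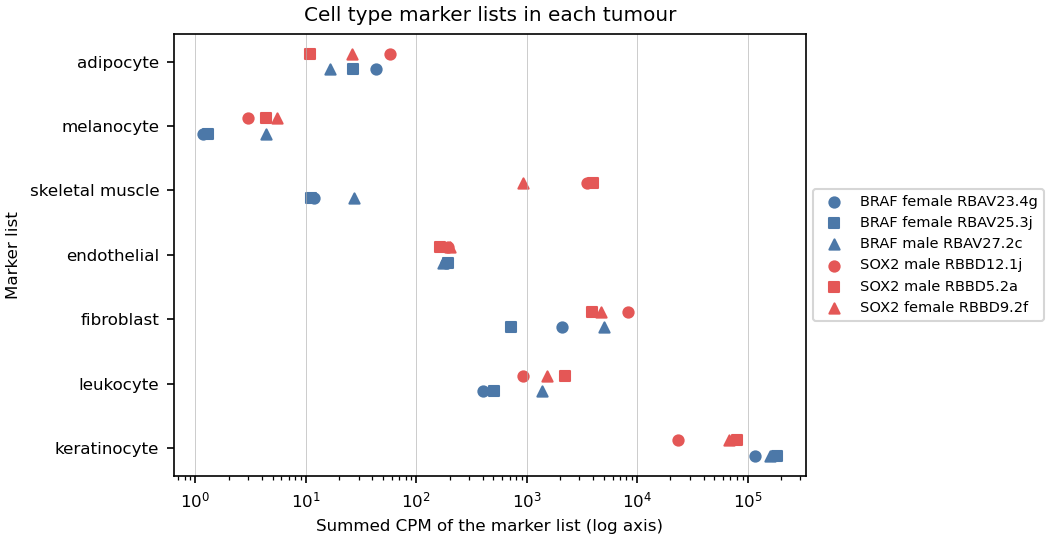
Summed CPM of 7 cell type marker lists (log axis) in each of the 3 BRAF tumours (blue) and 3 SOX2 tumours (red). The keratinocyte sum is lowest in RBBD12.1j at 23600 CPM, and the skeletal muscle sums of the SOX2 tumours start at 924 CPM against at most 27.5 CPM in the BRAF tumours.

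The promoters of the cell death genes were searched for the letters that factors tied to cell death or to SOX2 prefer, since many members had higher values together. RefSeq windows of the 250 bases before each start (GRCm38.p6) were matched by symbol for 38 of the 44 genes, giving 51 windows, and none was found for Bik, Pmaip1, Gsdma, Tradd, Gsdmd and Tnfrsf10b. The SOX core letters CATTGT, read on both strands, were in 4 of the 51 windows (7.84%) and in 10.7% of all 32851 windows. The p53 half-site consensus was in 3 windows (5.88%) and in 7.13% of all windows, and the NF-kB consensus was in 4 windows (7.84%) of 3 genes and in 3.90% of all windows, and 2 of those 4 are overlapping Casp4 windows that hold the same site. Genes with an unadjusted p below 0.05 held matches at 8 sites, and the 5 sites outside annotated exons are printed as 30 bases from 5′ to 3′ along the gene's strand, with the match in capitals.
Bbc3, NF-kB consensus, chr7:16309437-16309466, plus strand: ctggctgccGGGAAACCCCCcgcgccgagg
Bbc3, SOX core, chr7:16310091-16310120, plus strand: gtttgtttacaaACAATGgggttcgggctc
Bid, SOX core, chr6:120917039-120917068, minus strand: taatacatcaagACAATGcggagaggtcgg
Bmf, p53 half-site, chr2:118544781-118544810, minus strand: cccaagtgaaGGGCTTGCCTcttgccgaat
Casp4, NF-kB consensus, chr9:5308747-5308776, plus strand: tgagttacaGGGGATTTCCCcacagcagtt
The capitals in Bbc3 and Casp4 under the NF-kB consensus cover 2 matches that overlap. A match describes letters in the window and is not a bound site, and no binding was measured.

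Over the pro-death genes the median log2 fold change was 0.71, and 25 of the 30 tested were positive (all tested genes, 12904 of 24433). 10 had higher and 1 had lower values in the SOX2 tumours at an unadjusted p below 0.05 (36.7%, against 25.7% of all tested genes). DESeq2 called 7 higher and 1 lower (all genes, 15.0%), and edgeR called none. Groups did not overlap for 15 of the 30 (50%), 13 of them higher and 2 lower in the SOX2 tumours, against 34.2% of all tested genes (18.2% higher and 16.0% lower). Without RBBD12.1j the median was 0.22. Per tumour, the median over these genes of the log2 ratio to the BRAF mean was 0.84 in RBBD12.1j, 0.24 in RBBD5.2a and 0.20 in RBBD9.2f, and lay between 0.00 and 0.03 in the BRAF tumours.

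**Figure D2:**
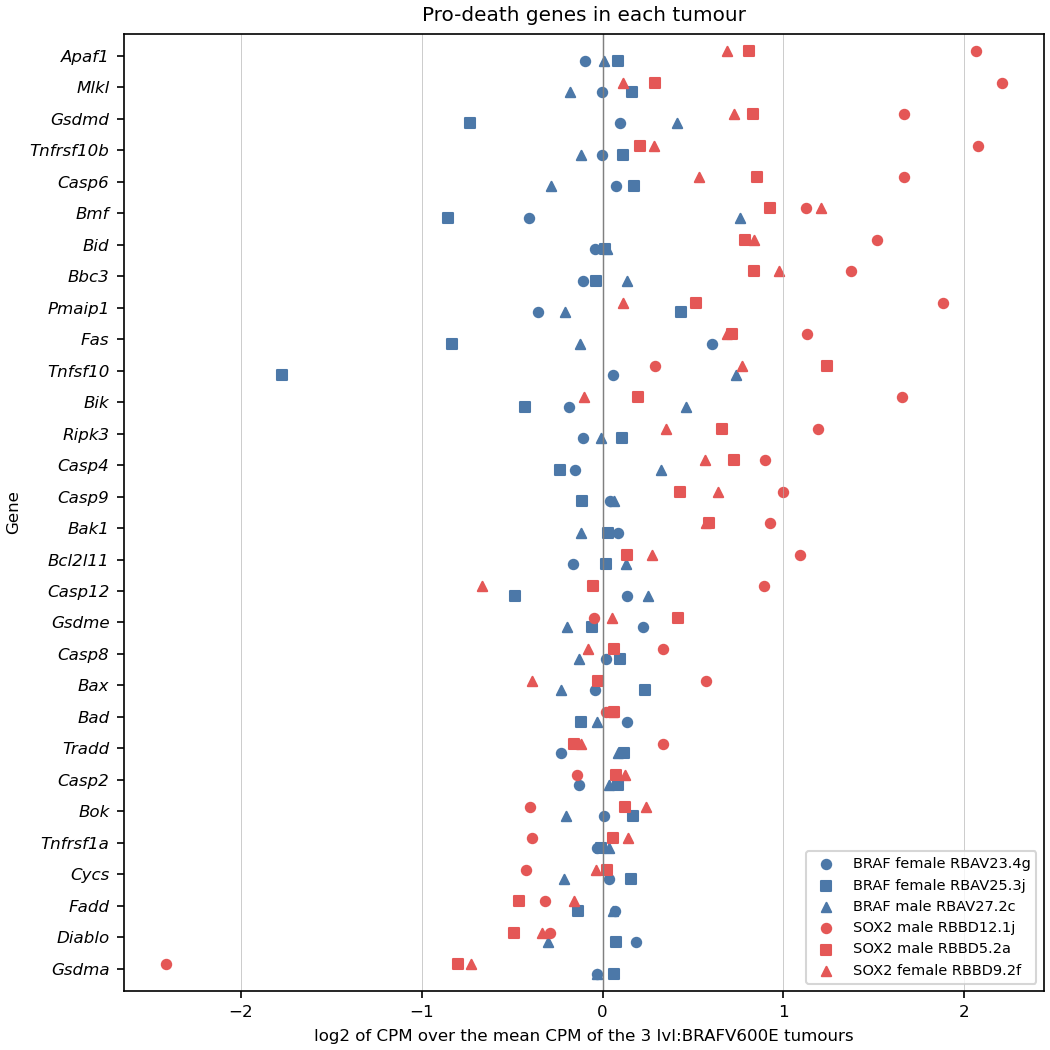
Each row is 1 of the 30 tested pro-death genes, ordered by fold change, and each point is the log2 of a tumour's CPM over the mean CPM of the 3 BRAF tumours (blue, BRAF; red, SOX2). RBBD12.1j (red circles) lies to the right of the other SOX2 tumours for most genes at the top, and Gsdma is the lowest row.

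Among the effectors that open the mitochondrial outer membrane, Bak1 had the smallest p of all the cell death genes. Bak1 (ENSMUSG00000057789, GRCm38 chr17:27019810-27029009, minus strand) was at 22.3, 21.4 and 19.3 CPM in the BRAF tumours and at 39.9, 31.7 and 31.3 CPM in the SOX2 tumours. Every SOX2 tumour lay above every BRAF tumour, with means of 34.3 ± 4.88 and 21.02 ± 1.52 CPM (SD, n = 3 each). The log2 fold change was 0.71 (SE 0.15) with an adjusted p of 0.0505 by edgeR, just above the threshold. Bak1 passed by DESeq2 (adjusted p = 0.00298), by limma voom (0.0302) and by edgeR without RBBD12.1j (0.0410), and its adjusted p ranged up to 0.167 over all alternatives. Bax and Bok, which encode the related effectors, gave log2 fold changes of 0.11 (SE 0.27) and 0.01 (SE 0.20), and their tumours overlapped between the groups.

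BH3-only genes encode the proteins that set BAX and BAK free. Their log2 fold changes were positive in 7 of 7 tested (all tested genes, 12904 of 24433). The median was 1.05, and 0.33 without RBBD12.1j. Bbc3, which encodes PUMA, was at 1.36, 1.43 and 1.62 CPM in the BRAF tumours and at 3.80, 2.62 and 2.89 CPM in the SOX2 tumours. Bid, whose product links the receptor route to the mitochondrion, was at 2.35, 2.45 and 2.47 CPM and at 6.94, 4.18 and 4.33 CPM. Bmf was at 2.46, 1.80 and 5.51 CPM and at 7.11, 6.19 and 7.51 CPM. All 3 lay higher in every SOX2 tumour than in any BRAF tumour, and the BRAF male was nearest to the SOX2 tumours for Bmf. Log2 fold changes were 1.08 (SE 0.27) for Bbc3, 1.09 (SE 0.27) for Bid and 1.09 (SE 0.41) for Bmf, which was 0.80 without RBAV25.3j and 1.70 without RBAV27.2c. EdgeR gave adjusted p-values of 0.0699, 0.0707 and 0.155, and DESeq2 called Bbc3 (adjusted p = 0.0100) and Bid (0.00834). 628 bases of Bid's exons overlap Bcl2l13 on the other strand, which held 15853 reads over the 6 tumours against 671 for Bid, so reads of the pair may be mixed if strand was not used in counting.

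Bcl2l11, which encodes BIM, was at 12.4, 14.1 and 15.2 CPM in the BRAF tumours and at 29.7, 15.3 and 16.8 CPM in the SOX2 tumours. The groups did not overlap, but RBBD5.2a lay next to the highest BRAF tumour, and the log2 fold change of 0.57 (SE 0.27, edgeR adjusted p = 0.236) was 0.21 without RBBD12.1j. Pmaip1, which encodes NOXA, was at 11.3, 19.6 and 12.6 CPM and at 53.5, 20.8 and 15.7 CPM. RBBD12.1j had 2.93 times the mean of the other SOX2 tumours for Pmaip1, and the other 2 were close to the BRAF range. Bad stayed between 10.3 and 12.2 CPM in all 6 tumours (log2 fold change 0.04, SE 0.15). Bik reached at most 0.979 CPM, and Hrk was below the 3-count floor of each library (0.0839 to 0.143 CPM) in all tumours.

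In the apoptosome, Apaf1 gave the largest positive fold change among the cell death genes over all 6 tumours by edgeR, but not without RBBD12.1j or by limma voom, where Bmf was ahead. Apaf1 (ENSMUSG00000019979, chr10:90989311-91082770, minus strand) was at 15.4, 17.5 and 16.6 CPM in the BRAF tumours and at 69.2, 29.0 and 26.6 CPM in the SOX2 tumours. The BRAF tumours were close together and each SOX2 tumour lay above them, with RBBD12.1j at 2.49 times the mean of the other SOX2 tumours. The log2 fold change was 1.33 (SE 0.37, edgeR adjusted p = 0.0847), DESeq2 called it (adjusted p = 0.00887), and without RBBD12.1j it was 0.75 (SE 0.13) with an edgeR adjusted p of 0.0225. Cycs (cytochrome c) and Diablo (SMAC, which relieves inhibition of caspases) had log2 fold changes of -0.13 (SE 0.17) and -0.37 (SE 0.26), with overlapping groups.

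Of the 6 caspase genes, none passed by edgeR (all tested genes, 3.90%). The unadjusted p was below 0.05 for 3 (all tested genes, 25.7%), and DESeq2 called 2 (15.0%). Casp9, the initiator that the apoptosome activates, was at 7.19, 6.47 and 7.32 CPM in the BRAF tumours and at 14.0, 9.39 and 10.9 CPM in the SOX2 tumours. Casp6, an executioner, was at 6.79, 7.25 and 5.27 CPM and at 20.4, 11.6 and 9.32 CPM. Casp4, which senses bacterial lipopolysaccharide and cleaves gasdermin D, was at 2.15, 2.03 and 2.99 CPM and at 4.45, 3.95 and 3.54 CPM. None of these 3 genes overlapped between the groups (34.2% of all tested genes did not), and RBBD12.1j was highest for each. Log2 fold changes were 0.71 (SE 0.20) for Casp9, 1.10 (SE 0.32) for Casp6 (0.70 without RBBD12.1j) and 0.74 (SE 0.26) for Casp4, with edgeR adjusted p-values of 0.0916, 0.0939 and 0.137. DESeq2 called Casp6 (adjusted p = 0.0185) and Casp9 (0.0247). Casp2, Casp8 (the receptor initiator) and Casp12 had log2 fold changes of 0.02 (SE 0.14), 0.12 (SE 0.15) and 0.20 (SE 0.44), and their groups overlapped.

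No death ligand or receptor gene reached an unadjusted p below 0.05 by edgeR, against 25.7% of all tested genes. Fas was at 1.5, 0.554 and 0.903 CPM in the BRAF tumours and at 2.15, 1.62 and 1.59 CPM in the SOX2 tumours. Tnfrsf10b, the mouse receptor for TRAIL, was at 6.99, 7.58 and 6.46 CPM and at 29.6, 8.10 and 8.52 CPM. Neither overlapped between the groups, but Tnfrsf10b was 3.56 times the mean of the other SOX2 tumours in RBBD12.1j, and its log2 fold change of 1.14 (SE 0.51, edgeR adjusted p = 0.211) was 0.24 without that tumour. Fas gave 0.85 (SE 0.42, edgeR adjusted p = 0.248), with 1.29 without RBAV23.4g and 0.56 without RBAV25.3j. Tnfsf10, which encodes TRAIL, ranged from 0.508 to 4.11 CPM with overlapping groups. Tnfrsf1a, the main TNF receptor, was at 164, 166 and 171 CPM and at 128, 174 and 184 CPM, with RBBD12.1j lowest (log2 fold change -0.04, SE 0.16).

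Fadd, the adaptor that brings caspase-8 to death receptors, was at 13.5, 11.8 and 13.4 CPM in the BRAF tumours and at 10.4, 9.39 and 11.6 CPM in the SOX2 tumours. The SOX2 values lay below the BRAF values without overlap but with hardly a gap, and the log2 fold change was -0.31 (SE 0.16, edgeR adjusted p = 0.279). Tradd, the adaptor of the TNF receptor, gave 0.04 (SE 0.19) with overlapping groups.

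Ripk3, the kinase that phosphorylates MLKL in necroptosis, was at 10.7, 12.5 and 11.5 CPM in the BRAF tumours and at 26.4, 18.3 and 14.7 CPM in the SOX2 tumours, without overlap. Its log2 fold change was 0.78 (SE 0.23), with an adjusted p of 0.100 by edgeR and 0.0352 by DESeq2, and it was 0.51 without RBBD12.1j. Mlkl, the pore-forming executioner, was at 6.44, 7.25 and 5.70 CPM and at 29.9, 7.90 and 7.01 CPM. RBBD12.1j had 4.01 times the mean of the other SOX2 tumours for Mlkl, the groups otherwise met, and the log2 fold change of 1.21 (SE 0.55, edgeR adjusted p = 0.222) was 0.20 without it.

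Gsdma had the largest negative fold change among the cell death genes over all 6 tumours by edgeR. Without RBBD12.1j, Gadd45a was ahead of it at -0.80. Gsdma (ENSMUSG00000017204, chr11:98664351-98677708, plus strand) encodes a gasdermin of differentiated skin epithelium, and was at 232, 248 and 232 CPM in the BRAF tumours and at 44.5, 136 and 143 CPM in the SOX2 tumours. The BRAF values were within a narrow range, each SOX2 value was below them, and RBBD12.1j was lowest, as it was for the keratinocyte markers. The log2 fold change was -1.14 (SE 0.40) with an edgeR adjusted p of 0.136. Without RBBD12.1j it was -0.77 (SE 0.11) with an adjusted p of 0.0118, and DESeq2 gave 0.0361 over all 6 tumours. Gsdmd, the gasdermin cleaved by inflammatory caspases, lay the other way, at 2.22, 1.25 and 2.76 CPM and at 6.57, 3.69 and 3.43 CPM. Its groups did not overlap (log2 fold change 1.14, SE 0.40, edgeR adjusted p = 0.134), and Gsdme gave 0.16 (SE 0.21) with overlap.

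Over the 9 anti-death genes the median log2 fold change was 0.47, and 8 of 9 were positive (all tested genes, 12904 of 24433). 4 had higher values in the SOX2 tumours at an unadjusted p below 0.05 and without overlap (44.4%), against 25.7% of all tested genes at that p and 34.2% without overlap. DESeq2 called 2 of them (all genes, 15.0%), and edgeR called none. Without RBBD12.1j the median was 0.27. The median log2 ratio to the BRAF mean was 0.395 in RBBD12.1j, 0.23 in RBBD5.2a and 0.26 in RBBD9.2f, so that the SOX2 tumours were closer to each other than for the pro-death genes.

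Mcl1, an essential survival gene of the BCL2 family, was at 137, 150 and 144 CPM in the BRAF tumours and at 189, 186 and 173 CPM in the SOX2 tumours. Bcl2l1, which encodes BCL-XL, was at 42.0, 44.8 and 44.3 CPM and at 71.6, 51.3 and 60.4 CPM. Both lay higher in every SOX2 tumour. Log2 fold changes were 0.35 (SE 0.11) for Mcl1 and 0.48 (SE 0.15) for Bcl2l1, with edgeR adjusted p-values of 0.120 and 0.104, and DESeq2 called Mcl1 (adjusted p = 0.0448). Bcl2 was at 7.84, 5.36 and 5.99 CPM and at 16.0, 8.0 and 7.73 CPM, with overlap between the groups and RBBD12.1j above the rest. Bcl2l2 stayed between 20.9 and 23.6 CPM. Bcl2a1b had at most 0.224 CPM and passed the filter on a few reads only, and its near-identical copies can share reads, so its value is uncertain.

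Birc3, which encodes the inhibitor of apoptosis cIAP2 and is a target of NF-kB, was at 17.7, 13.4 and 25.4 CPM in the BRAF tumours and at 30.1, 38.2 and 34.8 CPM in the SOX2 tumours. The groups did not overlap, and RBBD12.1j was the lowest of the SOX2 tumours here. The log2 fold change was 0.87 (SE 0.24) and 0.95 without RBBD12.1j. Adjusted p-values were 0.0881 by edgeR, 0.0200 by DESeq2 and 0.0316 by limma voom. Birc2 and Xiap, the other inhibitors of apoptosis, gave 0.24 (SE 0.18) and 0.08 (SE 0.18) with overlap. Cflar, which holds back caspase-8, was at 80.2, 84.3 and 82.4 CPM and at 151, 91.8 and 99.2 CPM, and its log2 fold change of 0.47 (SE 0.20, edgeR adjusted p = 0.192) was 0.21 without RBBD12.1j.

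**Figure D3:**
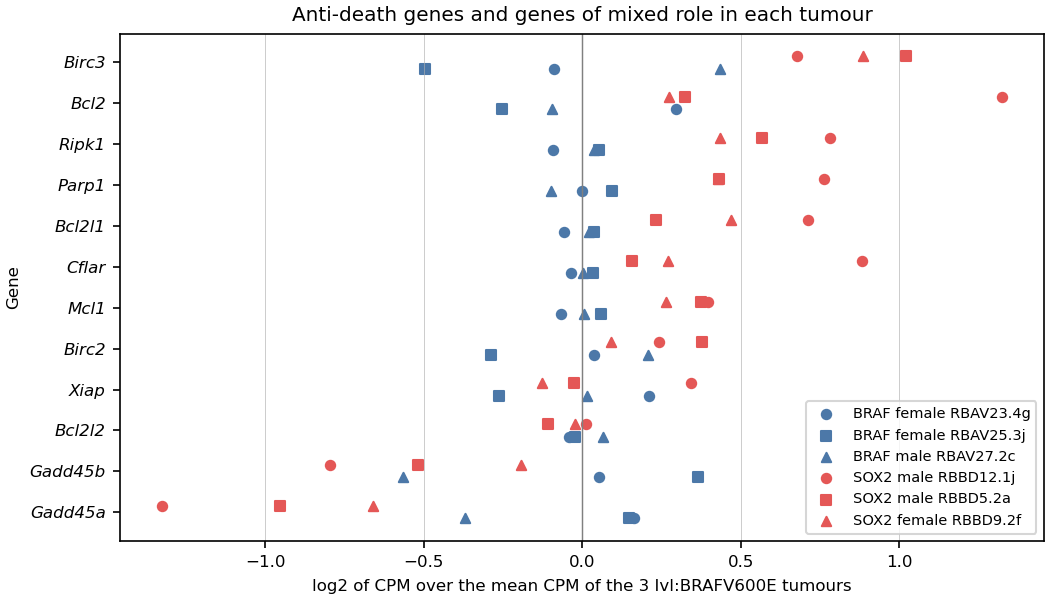
Log2 of each tumour's CPM over the mean CPM of the 3 BRAF tumours for 8 anti-death genes (Bcl2a1b, with 0 reads in several tumours, is left out) and the 4 genes with both or other roles (blue, BRAF; red, SOX2). Birc3, Ripk1, Parp1, Bcl2l1, Cflar and Mcl1 have all 3 SOX2 tumours to the right of the BRAF tumours, and Gadd45a has them to the left.

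Ripk1, a kinase that serves survival signalling as well as necroptosis, was at 22.7, 25.1 and 24.9 CPM in the BRAF tumours and at 41.7, 35.9 and 32.8 CPM in the SOX2 tumours. Parp1, a DNA repair enzyme that caspases cleave, was at 26.4, 28.1 and 24.6 CPM and at 44.7, 35.6 and 35.5 CPM. Both were without overlap, and the BRAF tumours differed little among themselves. Log2 fold changes were 0.60 (SE 0.14) for Ripk1 and 0.55 (SE 0.14) for Parp1. The adjusted p for Ripk1 was 0.0586 by edgeR, 0.00742 by DESeq2 and 0.0344 by limma voom, and for Parp1 it was 0.0766 by edgeR and 0.0223 by DESeq2. 241 bases of Ripk1's exons overlap Serpinb6a on the other strand, which held 13851 reads against 5240 for Ripk1.

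Gadd45a (ENSMUSG00000036390, chr6:67035096-67037457, minus strand), a stress gene induced by DNA damage, was at 12.7, 12.6 and 8.79 CPM in the BRAF tumours and at 4.53, 5.86 and 7.19 CPM in the SOX2 tumours. Every SOX2 tumour lay below every BRAF tumour, and the males lay below the females within each group. The log2 fold change was -0.96 (SE 0.25), with an adjusted p of 0.0741 by edgeR, 0.00658 by DESeq2 and 0.0460 by limma voom. Gadd45b gave -0.48 (SE 0.27) with overlapping groups. Its log2 fold change was -0.26 without RBAV25.3j, -0.70 without RBAV27.2c and -0.25 with sex as a covariate.

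**Figure D4:**
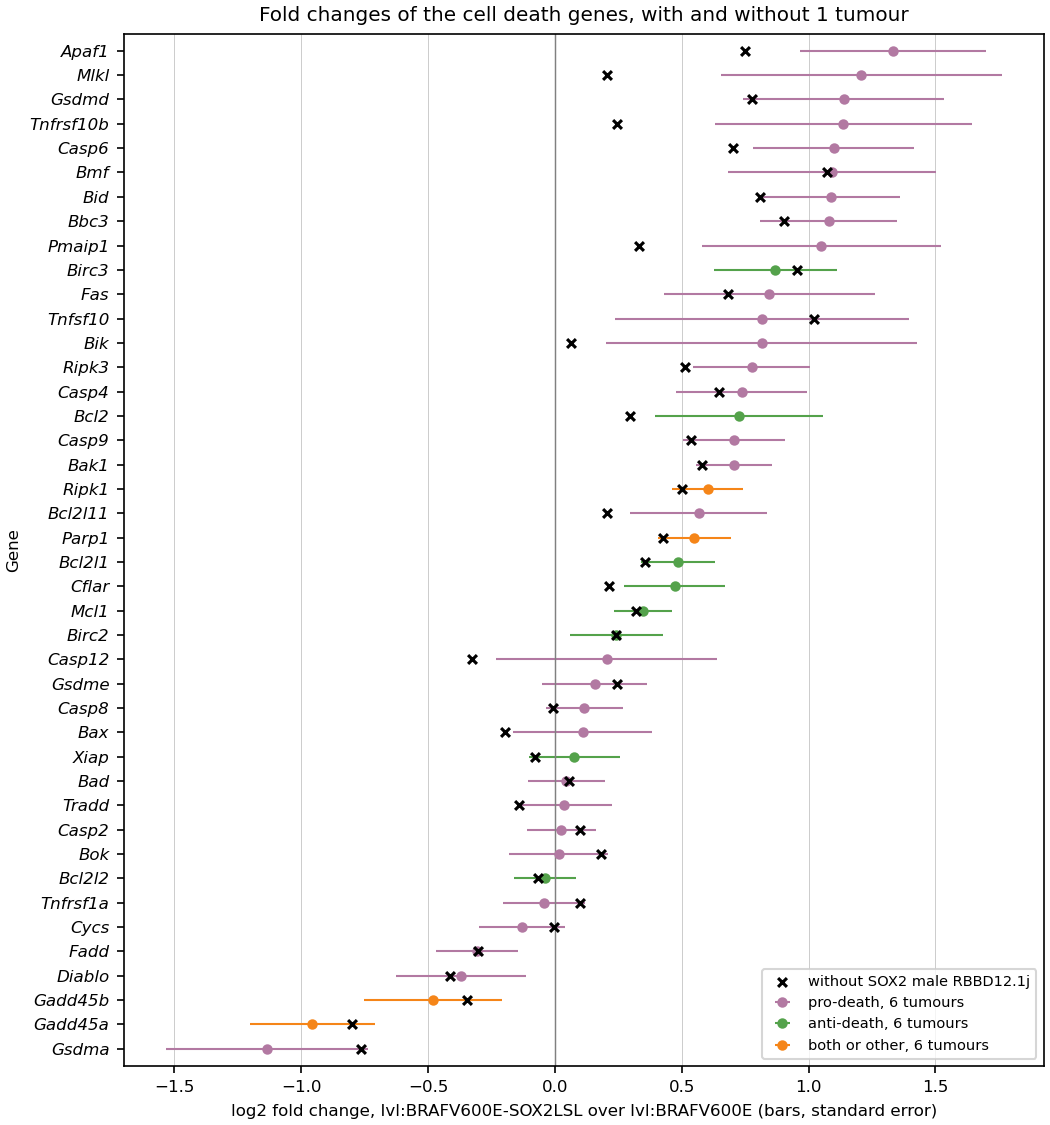
Log2 fold changes of 42 cell death genes (SOX2 over BRAF tumours, 3 against 3) with their standard errors from edgeR, coloured by role, and crosses for the same fit without RBBD12.1j (Bcl2a1b, with a standard error of 1.65, is left out). Crosses for Mlkl, Tnfrsf10b, Pmaip1 and Bik lie between 0.06 and 0.33, while those for Bak1, Bbc3, Bmf, Birc3 and Mcl1 lie close to the value over 6 tumours.

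Levels of different genes were set against each other per length, as CPM per kilobase of exon. Gsdma (87.1), Tnfrsf1a (64.5) and Mcl1 (42.0) had the highest mean levels among the cell death genes in the BRAF tumours. By group mean in the SOX2 tumours the same 3 genes led, at 62.6 for Tnfrsf1a, 53.4 for Mcl1 and 39.6 for Gsdma, but their order differed between the tumours, and in RBBD12.1j Pmaip1, Bak1 and Bok lay above Gsdma. The level summed over the 31 pro-death genes was 254, 271 and 253 CPM per kilobase in the BRAF tumours and 235, 243 and 245 in the SOX2 tumours. This sum was lower in every SOX2 tumour than in any BRAF tumour. Without Gsdma, left out after its values were seen, the sums were 169, 180 and 168 and then 218, 193 and 192. Sums over the anti-death genes were 77.8, 77.9 and 81.6 and then 110, 98.2 and 95.1. The direction of the pro-death sum thus turned with Gsdma, while the anti-death sum was higher in every SOX2 tumour. Other single genes also weighed heavily. By group mean, Mcl1 made up 42.0 (BRAF) and 53.4 (SOX2) of the anti-death sum, and Tnfrsf1a 64.5 and 62.6 of the pro-death sum. The ratio of the pro-death to the anti-death sum was 3.26, 3.47 and 3.10 in the BRAF tumours and 2.13, 2.47 and 2.57 in the SOX2 tumours. Without Gsdma it was 2.17, 2.31 and 2.05 in the BRAF tumours and 1.98, 1.96 and 2.02 in the SOX2 tumours, a narrower gap. Neither ratio overlapped between the groups, and no test was made of them.

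Genes that neighbour these in the death pathways were taken from 8 further lists of 91 genes, 86 of them tested. EdgeR called 1 higher and 1 lower, against 3.90% of all genes, and DESeq2 called 12 higher and 4 lower, against 15.0% of all genes (8.59% higher and 6.36% lower). Eda2r, a TNF receptor family gene induced by p53, was at 3.0, 1.66 and 2.90 CPM in the BRAF tumours and at 18.6, 11.0 and 8.20 CPM in the SOX2 tumours. Casp1, the inflammatory caspase that matures interleukins 1 beta and 18, was at 39.0, 22.4 and 26.9 CPM and at 13.1, 13.6 and 10.7 CPM. Eda2r rose by 2.32 on the log2 scale (SE 0.38, edgeR adjusted p = 0.0287) and Casp1 fell by 1.24 (SE 0.23, edgeR adjusted p = 0.0377), and neither overlapped between the groups. Neither passed with sex as a covariate (0.0684 and 0.0953 by edgeR). When single tumours were left out, Eda2r passed only without RBBD12.1j or RBBD9.2f (adjusted p from 0.0176 to 0.126), and Casp1 passed only without RBBD12.1j (0.0345 to 0.128).

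No other gene of the further lists passed by edgeR. As a background for the counts below, 25.7% of all tested genes had an unadjusted p below 0.05, and DESeq2 called 15.0%. In the p53 pathway, Eda2r was the 1 of 16 tested that was called. At an unadjusted p below 0.05, Eda2r alone had higher values and 3 had lower values (all tested genes, 14.5% and 11.2%). DESeq2 called 1 higher and 2 lower (all tested genes, 8.59% and 6.36%). Among other caspases and their substrates (1 of 11 called), Casp1 was followed by Aifm1, which encodes the apoptosis-inducing factor, at 0.61 (SE 0.20, adjusted p = 0.121) on the log2 scale. In the other BCL2 family genes (0 of 11 called, 4 at an unadjusted p below 0.05 and 2 by DESeq2), Bcl2l15 gave 1.67 (SE 0.38, adjusted p = 0.0570) and Bnip2 gave 0.40 (SE 0.11, adjusted p = 0.0926). In other death ligands and receptors (0 of 9, with 3 and 1), Tnfrsf1b, the second TNF receptor, gave 1.28 (SE 0.29, adjusted p = 0.0584) and Tnfsf12, which encodes TWEAK, gave 1.15 (SE 0.37, adjusted p = 0.115).

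In other inhibitors of apoptosis (0 of 7 called, 3 at an unadjusted p below 0.05 and 3 by DESeq2), Naip2 gave 1.64 (SE 0.38, adjusted p = 0.0573) and Naip6 gave 1.45 (SE 0.47, adjusted p = 0.118), and these copies may share reads. Over all tested genes, 25.7% had such an unadjusted p and DESeq2 called 15.0%, which holds beside the next lists as well. In the TNF complex and NF-kB regulators (0 of 15, with 5 and 1), Zbp1, a sensor that engages RIPK3, gave 1.78 (SE 0.56, adjusted p = 0.113), and Map3k7, which encodes the kinase TAK1, gave -0.34 (SE 0.12, adjusted p = 0.140). In the stress responses (0 of 6, with 2 and 0), Chac1 gave -0.85 (SE 0.34, adjusted p = 0.170) and Gadd45g gave 0.85 (SE 0.34, adjusted p = 0.174). Of 12 genes of pyroptosis and cytotoxic granules tested, Casp1 was the 1 that passed by edgeR. At an unadjusted p below 0.05, 3 had higher and 2 had lower values (all tested genes, 14.5% and 11.2%). DESeq2 called 3 higher and 2 lower (all tested genes, 8.59% and 6.36%).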

How the data were processed

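The deposited table holds raw counts of reads per gene. Per the labels, the authors sequenced rRNA-depleted RNA of frozen skin tumours (squamous cell carcinoma). The submitters' processing notes name FastQC 0.11.8, Trim Galore, HISAT2 2.1.0, featureCounts (Subread 1.6.3) and GRCm38. Strand and multimapping settings are not given in the sources used here, so overlapping genes and near-identical copies are uncertain. The methods also name a batch correction (ComBat-seq), but these tumours were sequenced in 1 batch. The table's columns carry mouse names, matched to genotype through the study's source data, and 1 tumour column whose group its name did not give was not used. The labels list 4 Ivl:BRAFV600E and 3 Ivl:BRAFV600E-SOX2LSL tumours. 6 tumours were analysed.

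A gene entered the test with 5 or more reads in any tumour. Counts were scaled by TMM, and the groups (3 against 3) were compared with edgeR 4.0.16's quasi-likelihood test in R 4.3.3, with Benjamini-Hochberg adjustment over all 24433 genes and a threshold of 0.05. The fit was tested on simulated data. DESeq2 1.42.0, limma 3.58.1 voom with sample weights, other scalings and filters, sex as a covariate and leaving out each tumour were alternatives. Values are CPM after TMM, and levels between genes are per kilobase of GENCODE M21 exon. Means are given with SD, fold changes with SE. Counts below 3 per library were taken as the floor, and it covers counting error only. An exact permutation test of 3 against 3 tumours cannot go below 0.1, so none was used.

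All 44 genes are named. Values in every tumour are given for those at an unadjusted p below 0.05 or without overlap, and from the further lists for every gene past the threshold. In lists with none, the 2 genes of smallest p are named with their fold changes. Aifm1, Pmaip1, Tnfrsf1a, Mlkl and Bcl2 were added after their values were seen. Members and lists were chosen with earlier results of these data known. Ddit3 did not match exactly 1 feature.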

Additional observations from a re-analysis of the deposited data

How the results depend on the processing

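33 of the 43 tested cell death genes kept their direction under all 8 alternatives and all 6 leave-one-out fits. The number called by edgeR over all genes (954) was 3653 by DESeq2, 2142 by limma voom, 1759 with no filter on low counts, 228 with sex as a covariate, and 22 (without RBAV23.4g) to 1575 (without RBBD12.1j) when 1 tumour was left out. Of the cell death genes, 0 were called, against 13 by DESeq2, 4 by limma voom, 2 with no filter (Bak1 and Apaf1), 2 with edgeR's filterByExpr (Bak1 and Ripk1, with 1296 of 17587 genes called in all), 1 without muscle genes and the 10 most abundant genes (Bak1, with 900 of 24404 in all), and 0 to 3 when 1 tumour was left out. For pro-death genes these counts were 8, 1, 2, 1, 1 and 0 to 3, and for anti-death genes DESeq2 called 2 and limma voom 1. Of the further death pathway genes (2 called), DESeq2 called 16, limma voom 8, no filter 7, filterByExpr 5, sex as a covariate 0, and leaving out 1 tumour 0 to 8, the highest without RBBD12.1j. Without RBBD9.2f 1 was called, and without any other tumour none. The median log2 fold change of pro-death genes (0.707) was 0.386 by limma voom and 0.224 (without RBBD12.1j) to 0.757 when 1 tumour was left out. That of anti-death genes (0.472) was 0.281 by limma voom, 0.364 with upper-quartile scaling, 0.323 with sex as a covariate and 0.267 to 0.595 when 1 tumour was left out. The causes were not tested. Upper-quartile scaling moved the median over all genes from 0.043 to -0.056 (log2).

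10 genes with small fold changes or few reads turned direction. With upper-quartile scaling the log2 fold change was -0.072 for Casp2, -0.001 for Bax, -0.077 for Bok, -0.054 for Bad, -0.029 for Xiap and -0.068 for Tradd. By limma voom it was -0.192 for Casp12, -0.067 for Bax, -0.059 for Xiap, -0.040 for Tradd and 0.050 for Tnfrsf1a. With sex as a covariate it was -0.132 for Casp12, -0.490 for Bcl2a1b and -0.025 for Tradd. Leaving out 1 tumour gave -0.038 to 0.099 for Casp2, -0.008 to 0.209 for Casp8, -0.327 to 0.497 for Casp12, -0.198 to 0.309 for Bax, -0.110 to 0.183 for Bok, -0.011 to 0.116 for Bad, -0.081 to 4.440 for Bcl2a1b, -0.079 to 0.192 for Xiap, -0.143 to 0.100 for Tnfrsf1a and -0.140 to 0.125 for Tradd. No paired analysis was possible because the table's columns carry mouse names and not the replicate numbers of the labels. Those numbers would not by themselves give pairs. They count tumours within a group, each tumour came from a separate mouse, and the labels do not say that equal numbers mark paired tumours. With 3 tumours a group, and 1 SOX2 tumour apart from the other 2, the spread limits what can be called, and genes below the floor cannot be compared.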

Other observations

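2 genes of the further lists, picked after their values were seen, lay lower in the SOX2 tumours. Il18, which encodes a cytokine that Casp1 matures and that keratinocytes express, was at 61.1, 42.8 and 30.1 CPM in the BRAF tumours (RBAV23.4g, RBAV25.3j and RBAV27.2c) and at 7.80, 18 and 15.3 CPM in the SOX2 tumours (RBBD12.1j, RBBD5.2a and RBBD9.2f). The groups did not overlap, and the log2 fold change was -1.71 (SE 0.37, edgeR adjusted p = 0.0521, DESeq2 adjusted p = 0.000301). Perp, a p53 target needed for desmosomes in the epidermis, was at 4234, 6219 and 4884 CPM and at 1042, 3138 and 2190 CPM (log2 fold change -1.27, SE 0.40, edgeR adjusted p = 0.111, DESeq2 adjusted p = 0.0120). RBBD12.1j, which was lowest for the keratinocyte markers, was lowest for Il18 and Perp as well.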
